A study of Mus musculus with 14 samples.

Results

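Polycomb peaks in the basal epidermis were examined at 10 genes known as imprinted, Igf2, H19, Peg3, Dlk1, Meg3, Mest, Plagl1, Grb10, Nnat and Ndn, out of 34328 protein-coding and long noncoding RNA genes annotated by RefSeq on the 19 autosomes and chromosome X. Chromatin immunoprecipitation followed by sequencing (ChIP-seq) had been carried out on basal keratinocytes of newborn mice (postnatal day 0) that carried a Krt14-RFP and a Krt10-H2B-GFP reporter, and the cells were sorted from back skin as Sca1-positive, RFP-high and GFP-negative. The number of cells per precipitation was 6000000 for Ring1b and 400000 for H2AK119ub and for H3K27me3. Each antibody had 2 replicates, and all carried the same genotype, age and sort, so no treatment or mutant was compared. A gene was counted in a replicate's peak list where it stood in the gene name column of a row, at any location class (promoter, gene body or distal). In all, 45 rows of the 6 replicate lists named a gene of the 10.

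An imprinted gene is transcribed mainly from the copy inherited from 1 parent. In most known cases, though not all, the choice is set by DNA methylation laid down in the germline at a control region of its domain. Polycomb repressive complex 1 contains the ubiquitin ligase Ring1b and places ubiquitin on histone H2A (H2AK119ub), while Polycomb repressive complex 2 writes H3K27me3, and both marks are found on silent developmental genes and at some imprinted domains. Many imprinted genes act on fetal growth through insulin-like growth factor signalling. By textbook assignment 7 of the 10 are expressed from the paternal copy and 3, H19, Meg3 and Grb10, from the maternal copy in most tissues. The lists hold reads of both parental copies and of all sorted cells together, so a peak on 1 copy and a peak in part of the cells cannot be told apart.

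The 6 lists held 3058 to 6040 peaks. Median ChIP reads per peak were 60 to 434 and median input reads 30 to 92. Library totals were not given in the sources used here. The input in peaks ran at 11.7 reads per kb in H3K27me3 replicate 1 and at 22.0 to 24.0 reads per kb in the other 5 lists. Of 7 basal keratinocyte genes such as Krt5 and Krt14, 0 stood in either H3K27me3 list, beside 10.8% of all genes. At that share 0 of 7 is near the count for any genes, so it does not check the sort. Both H3K27me3 lists named 3 of 5 fibroblast genes and 2 of 5 melanocyte genes, beside 6.94% of all genes. Both Ring1b lists named 1 of the 5 fibroblast and 0 of the 5 melanocyte genes, beside 6.97% of all genes. For H2AK119ub the counts in both lists were 3 of 5 and 0 of 5, beside 5.95% of all genes. Of the same 7 basal genes, Col17a1 and Itgb4 stood in 1 Ring1b list each, beside 13.2% of all genes in at least 1. Krt15 stood in both H2AK119ub lists and Itgb4 in 1 of them, beside 10.7% of all genes in at least 1. RNA was not measured in these samples. Intervals given below are 95% Clopper-Pearson intervals of the ChIP-to-input read ratio. They cover counting error only, since reads without molecular identifiers are not independent molecules. With 2 replicates an exact two-sided permutation test of 2 values against 2 cannot give a p below 0.333, so differences between genes are set against the replicate values and no test is reported.

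Promoter sequences were read first, because most of the peaks lay at transcription starts. RefSeq (GRCm38.p6, the assembly behind mm10) gave 16 windows of 300 bases, each from 250 bases before to 50 after a start, for 9 of the 10 genes. Starts are numbered from the 5′ end of each gene. The windows shown include at least 1 touched by Ring1b for Igf2, Grb10, Dlk1, Mest and Nnat, and that of Peg3 for a gene that no list named; other covered windows, such as start 3 of Mest, are not printed. Capitals mark CG dinucleotides, the sites of DNA methylation.
Igf2 start 2 (chr7:142661222-142661521, minus strand): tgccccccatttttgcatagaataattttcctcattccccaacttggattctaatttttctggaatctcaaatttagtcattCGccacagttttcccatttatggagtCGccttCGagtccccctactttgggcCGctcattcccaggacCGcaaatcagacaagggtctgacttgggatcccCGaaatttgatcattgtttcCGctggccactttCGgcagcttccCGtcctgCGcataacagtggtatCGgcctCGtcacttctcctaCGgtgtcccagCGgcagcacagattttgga
Igf2 start 3 (chr7:142658755-142659054, minus strand): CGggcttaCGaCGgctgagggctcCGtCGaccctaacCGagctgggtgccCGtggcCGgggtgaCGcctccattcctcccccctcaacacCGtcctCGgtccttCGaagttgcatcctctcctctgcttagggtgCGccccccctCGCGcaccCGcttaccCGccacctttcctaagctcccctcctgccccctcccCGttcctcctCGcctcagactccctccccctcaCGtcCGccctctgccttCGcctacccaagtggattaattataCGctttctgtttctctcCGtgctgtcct
Grb10 start 1 (chr11:12037371-12037670, minus strand): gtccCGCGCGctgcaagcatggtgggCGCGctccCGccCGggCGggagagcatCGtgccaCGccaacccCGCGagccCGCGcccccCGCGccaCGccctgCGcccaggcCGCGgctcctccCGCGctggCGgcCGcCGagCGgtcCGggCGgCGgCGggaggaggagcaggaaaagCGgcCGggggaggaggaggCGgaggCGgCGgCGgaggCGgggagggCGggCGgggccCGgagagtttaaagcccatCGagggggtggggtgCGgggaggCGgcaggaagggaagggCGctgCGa
Grb10 start 2 (chr11:12027922-12028221, minus strand): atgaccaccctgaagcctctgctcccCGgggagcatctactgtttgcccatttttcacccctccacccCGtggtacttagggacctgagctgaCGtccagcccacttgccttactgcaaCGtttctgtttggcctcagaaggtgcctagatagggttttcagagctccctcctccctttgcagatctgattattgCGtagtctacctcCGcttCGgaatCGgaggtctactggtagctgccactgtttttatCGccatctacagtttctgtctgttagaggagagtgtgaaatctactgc
Dlk1 start 1 (chr12:109452573-109452872, plus strand): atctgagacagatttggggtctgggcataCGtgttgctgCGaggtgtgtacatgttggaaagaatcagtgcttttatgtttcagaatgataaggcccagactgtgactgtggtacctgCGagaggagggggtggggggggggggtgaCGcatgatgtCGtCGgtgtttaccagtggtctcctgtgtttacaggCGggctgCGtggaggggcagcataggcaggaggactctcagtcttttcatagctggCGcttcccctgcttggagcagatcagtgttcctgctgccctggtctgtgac
Mest start 2 (chr6:30737800-30738099, plus strand): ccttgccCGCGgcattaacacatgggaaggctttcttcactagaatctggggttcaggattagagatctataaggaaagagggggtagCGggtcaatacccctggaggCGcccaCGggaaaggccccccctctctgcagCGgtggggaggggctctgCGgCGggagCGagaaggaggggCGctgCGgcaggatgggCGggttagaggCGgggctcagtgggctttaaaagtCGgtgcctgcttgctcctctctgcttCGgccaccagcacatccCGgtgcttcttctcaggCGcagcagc
Nnat start 1 (chr2:157559828-157560127, plus strand): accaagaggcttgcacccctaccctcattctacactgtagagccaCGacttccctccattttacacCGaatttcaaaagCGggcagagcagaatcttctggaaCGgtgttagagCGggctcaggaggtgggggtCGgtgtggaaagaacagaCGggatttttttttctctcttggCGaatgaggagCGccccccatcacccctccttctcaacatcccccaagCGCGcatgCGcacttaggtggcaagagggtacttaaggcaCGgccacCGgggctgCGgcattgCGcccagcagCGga
Peg3 start 1 (chr7:6730370-6730669, minus strand): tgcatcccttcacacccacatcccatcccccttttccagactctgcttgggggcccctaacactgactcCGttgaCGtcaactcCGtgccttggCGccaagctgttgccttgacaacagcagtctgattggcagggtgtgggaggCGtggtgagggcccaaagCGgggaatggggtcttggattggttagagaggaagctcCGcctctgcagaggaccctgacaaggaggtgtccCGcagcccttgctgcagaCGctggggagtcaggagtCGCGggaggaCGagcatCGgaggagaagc

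The windows differed widely in CG content. Start 1 of Grb10 held 45 CG dinucleotides, more than 98.1% of all 32851 RefSeq windows of this length, whose median was 7. Start 2 of Grb10 held 9, as did Dlk1. Igf2 held 2, 14, 24 and 7 at its 4 starts, Mest 8 at start 1 and 17 at each of starts 2 and 3, whose windows overlap almost wholly. Plagl1 held 26, Nnat 17, Peg3 13, Ndn 11, and Meg3 13 and 1. The 9 windows touched by a Ring1b peak in at least 1 replicate held 9 to 45 with a median of 17, and the 7 touched by none held 1 to 13 with a median of 8. The ranges overlapped, since Peg3, with no peak, held 13, and Grb10 start 2 and Dlk1, with Ring1b, held 9 each. TGCCGC, the core bound by the imprinting factor ZFP57, was searched on both strands and shares its CG with the dinucleotide count. It was found in 7 of the 16 windows, of 6 genes (Igf2, Meg3, Mest, Plagl1, Grb10 and Nnat), against 11.6% of all windows. The overlapping windows of Mest starts 2 and 3 were both counted. The 16 windows had a median of 13 CG dinucleotides against 7 in all windows, so that share is not matched for CG content. GCCATNTT, the core bound by YY1, was found in 0 of 16, against 6.05% of all windows. A match is a run of letters and not a shown site.

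**Figure D1:**
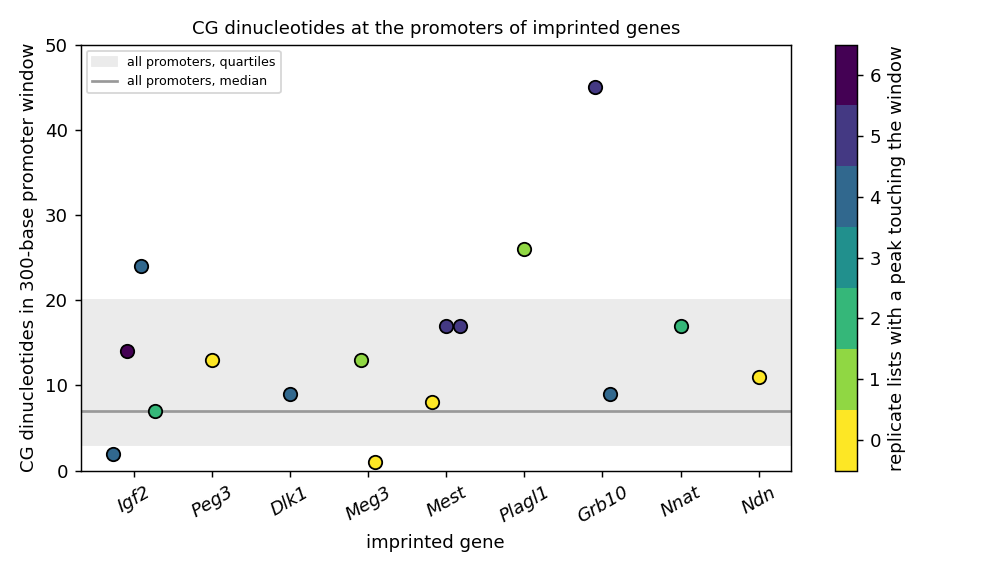
Number of CG dinucleotides (vertical axis) in each 300-base promoter window, by imprinted gene, with the colour giving how many of the 6 replicate lists had a peak touching the window. The line and band give the median of 7 and the quartiles, 3 and 20, of all windows; start 1 of Grb10 stands highest at 45 and start 2 of Igf2, with 14, is touched in all 6 lists.

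Igf2 and Grb10 were named by all 6 lists, and Peg3 and Ndn by none. Both Ring1b lists named 5 of the 10 genes (Igf2, Mest, Plagl1, Grb10 and Nnat), beside 6.97% of all 34328 genes. Both H2AK119ub lists named 3 (Igf2, Dlk1 and Grb10), beside 5.95% of all genes. Both H3K27me3 lists named 4 (Igf2, Dlk1, Mest and Grb10), beside 6.94% of all genes. Among protein-coding genes alone the shares were 10.2%, 8.68% and 10.0%. In promoter rows alone both lists named 4 of the 10 for Ring1b, 2 for H2AK119ub and 4 for H3K27me3, beside 6.27%, 4.71% and 6.08% of all genes and 9.17%, 6.91% and 8.87% of protein-coding genes. All 6 lists named 2 of the 10, beside 2.82% of all and 3.99% of protein-coding genes, and at least 1 of the 6 lists named 8, beside 20.5% and 29.9%. The 10 genes were chosen with results of these lists known and several are neighbours, so the counts describe them and are not a test.

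Further genes stood in the list of 1 replicate, namely Dlk1 for Ring1b, H19 and Mest for H2AK119ub, and Meg3 and Plagl1 for H3K27me3. Of the 7 paternally expressed genes 4 were named by both Ring1b lists, 2 by both H2AK119ub lists and 3 by both H3K27me3 lists, and of the 3 maternally expressed genes only Grb10 was, for each antibody. Among rows with a deposited p-value of at most 0.001 the Ring1b count was 3, without Plagl1 and Nnat. The p-values are the authors' own. They exceeded 0.05 in 4 of the 45 rows, the Ring1b rows of Plagl1 in both replicates, a distal H2AK119ub row of Dlk1 and a distal H2AK119ub row of Grb10, the last pair in replicate 2.

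**Figure D2:**
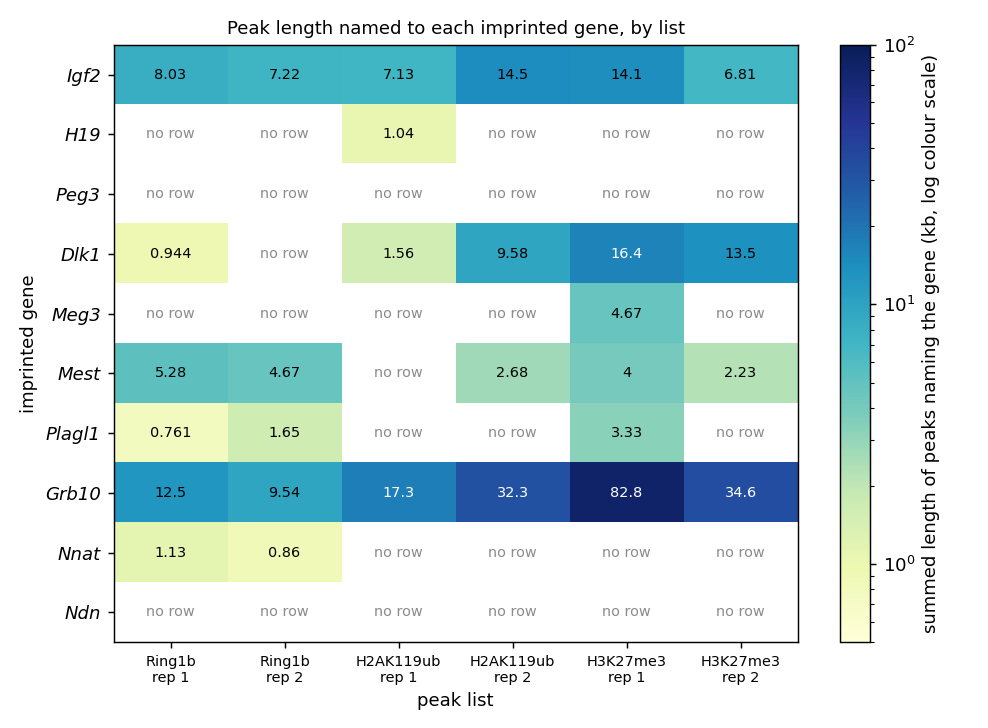
Summed length in kb of the peaks that named each imprinted gene (rows) in each replicate list (columns), on a log colour scale. Grb10 has the longest sum in all 6 lists, up to 82.8 kb for H3K27me3 in replicate 1, and Peg3 and Ndn have no peak.

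Igf2 encodes insulin-like growth factor 2, a growth ligand of the fetus, and lies on chromosome 7 from 142650768 to 142666816 on the minus strand. It carried the strongest Ring1b signal of the 10 genes. In Ring1b replicate 1 a peak from 142658348 to 142666372, 8025 bp long, held 1405 ChIP reads and 194 input reads. In replicate 2 a peak from 142658779 to 142666000, 7222 bp long, held 1088 ChIP reads and 174 input reads. The ratios of 7.24 (interval 6.23 to 8.46) and 6.25 (5.32 to 7.38) averaged 6.75 ± 0.700 (SD, n = 2). They ranked 68 of 4452 peaks in replicate 1 and 75 of 3058 in replicate 2. The Ring1b peaks covered start 2, shown above, in both replicates, start 3 wholly in replicate 1 and in part in replicate 2, and neither start 1 nor start 4.

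Both histone marks lay over the same stretch of Igf2. H2AK119ub had 332 ChIP and 180 input reads over 7130 bp in replicate 1, and 738 ChIP and 296 input reads over 14467 bp in replicate 2. The H2AK119ub ratios were 1.84 (1.53 to 2.22) and 2.49 (2.18 to 2.86), on average 2.17 ± 0.459 (SD, n = 2). They stood at percentiles 47.6 and 81.3 of their lists, against 98.5 and 97.6 for Ring1b. H3K27me3 had 1799 ChIP and 115 input reads over 14050 bp in replicate 1, and 854 ChIP and 175 input reads over 6809 bp in replicate 2. The H3K27me3 ratios were 15.6 (12.95 to 19.1) and 4.88 (4.14 to 5.78). ChIP reads per kb were 128 and 125 in these peaks, while input reads per kb were 8.19 in replicate 1 and 25.7 in replicate 2. The replicates were thus close in ChIP density and apart in input density. Relative to the median ratio of its own list, H3K27me3 at Igf2 stood at 1.88 in replicate 1 and 1.04 in replicate 2. Of the Ring1b peak length 75.4% to 100% lay inside a peak of either mark, over both Ring1b and all 4 mark lists.

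H19, the maternally expressed noncoding RNA that shares enhancers and a methylated control region with Igf2, lies on chromosome 7 from 142575530 to 142578146. It was named by 1 list. H2AK119ub replicate 1 had a promoter row from 142576812 to 142577853, 1042 bp long, with 31 ChIP reads and 12 input reads (ratio 2.58, interval 1.29 to 5.52). At this depth the interval was wide, and replicate 2 named no H19 peak. In the other 5 lists the nearest peaks were those of Igf2, 74.8 to 81.9 kb away. The 72.6 kb between the spans of H19 and Igf2 held no peak in any of the 6 lists.

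Grb10 encodes an adaptor protein that restrains insulin and growth factor receptors, the other side of the axis from Igf2. In mouse most tissues use its maternal copy, while neurons use the paternal copy from a downstream start. The gene spans chromosome 11 from 11930499 to 12037428 on the minus strand. Ring1b lay there in 2 separate peaks in each replicate, at the upstream and at the downstream start. The upstream peak held 447 ChIP and 174 input reads over 8878 bp in replicate 1 and 315 ChIP and 131 input reads over 6879 bp in replicate 2. The downstream peak held 261 ChIP and 91 input reads over 3647 bp, and 169 ChIP and 62 input reads over 2660 bp. Ratios averaged 2.49 ± 0.116 upstream and 2.80 ± 0.101 downstream (SD, n = 2 each), and the counting intervals of the peaks overlapped. Start 1, with its 45 CG dinucleotides, was covered whole by Ring1b in both replicates, and the window of start 2 in replicate 1 only. No Ring1b was called between the peaks.

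At Grb10 the Ring1b peaks summed to 12.5 kb in replicate 1 and 9.54 kb in replicate 2, less than either mark. Peak lengths also differed between the lists as a whole. Their medians in replicates 1 and 2 were 1368 and 1345.5 bp for Ring1b and 1615 and 2655 bp for H2AK119ub. For H3K27me3 they were 4582.5 and 4278 bp. H2AK119ub formed 4 peaks of 17.3 kb in sum in replicate 1, and 5 peaks of 32.3 kb in replicate 2. Their ratios ran from 1.21 to 1.81 in replicate 1 and from 1.60 to 2.58 in replicate 2. The lowest was in a distal peak of replicate 1 with 109 ChIP and 90 input reads. Its interval included 1 (0.908 to 1.62), the only such row among the 45. Ratios were not scaled for library size, so 1 does not mark a lack of enrichment. An interval above 1 therefore does not show enrichment in the other rows. The H2AK119ub peaks left the start 1 window free in replicate 1 and touched it in part in replicate 2, with peaks on each side of it. H3K27me3 formed 3 peaks of 82.8 kb in sum in replicate 1, and 2 peaks of 34.6 kb in replicate 2. The H3K27me3 peak over the upstream start held 4455 ChIP and 472 input reads over 34532 bp (ratio 9.44, 8.58 to 10.4) in replicate 1. In replicate 2 it held 2041 ChIP and 561 input reads over 23568 bp (3.64, 3.31 to 4.00). These were long peaks of ordinary ratio, at percentiles 98.5 and 96.7 of their lists by length and at 60.3 and 24.5 by ratio. Grb10 thus had the greatest called length of the 10 genes in every list. Its ratios lay on both sides of the list medians, above them in 0 of 4 H2AK119ub peaks of replicate 1 and 3 of 5 of replicate 2, and in 1 of 3 H3K27me3 peaks of replicate 1 and 0 of 2 of replicate 2.

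**Figure D3:**
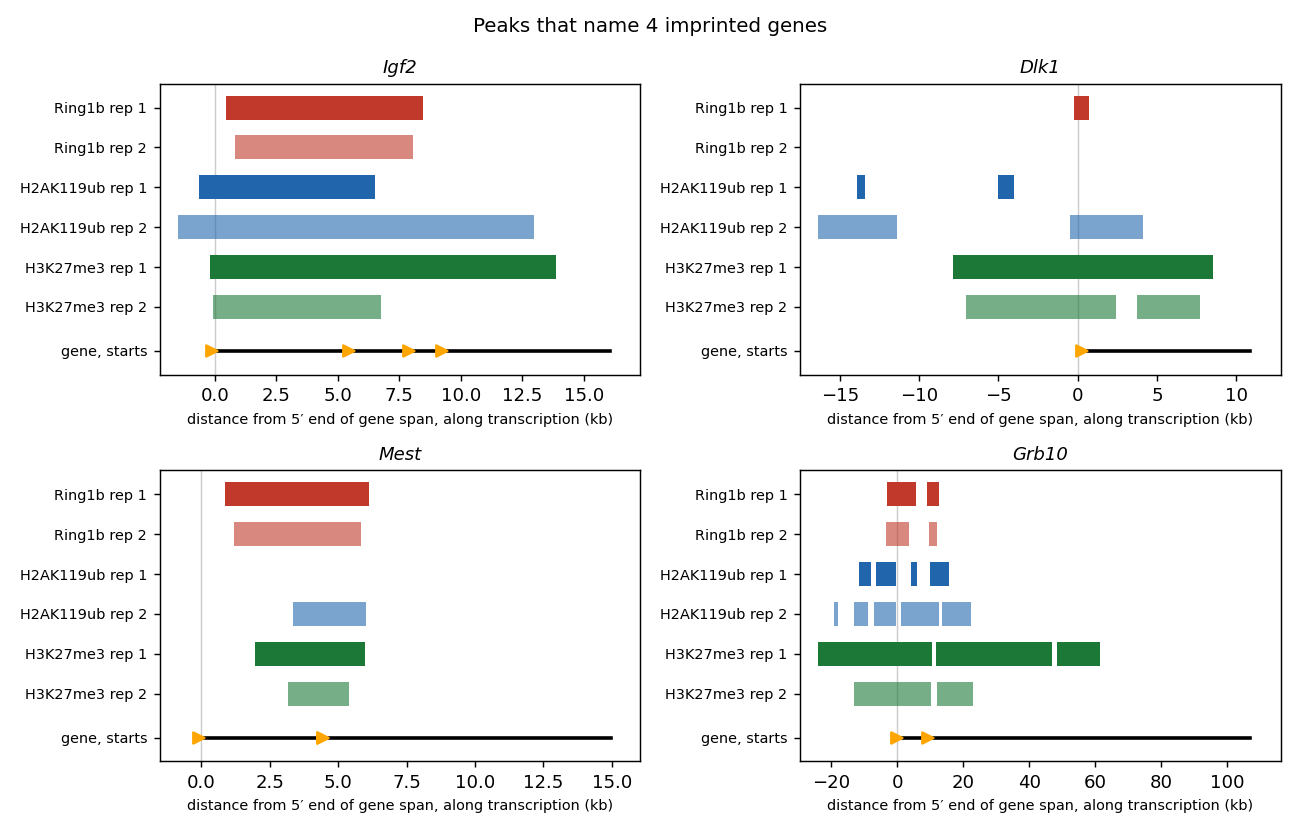
Peaks naming Igf2, Dlk1, Mest and Grb10 in the 6 replicate lists, by distance in kb from the 5′ end of the gene span along the direction of transcription; the black line is the gene and the triangles are the RefSeq promoter windows. Ring1b lies inside the H3K27me3 peak of replicate 1 at Igf2 and reaches past that of replicate 2, and is found in 2 separate peaks at the starts of Grb10, and in 1 short peak of replicate 1 at Dlk1.

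Dlk1 and Meg3 share a domain on chromosome 12. Dlk1 encodes a transmembrane relative of the Notch ligands that holds back differentiation, and is expressed from the paternal copy. It spans 109452485 to 109463336 on the plus strand. In H3K27me3 replicate 1 it had a peak from 109444621 to 109460990, 16370 bp long, with 2105 ChIP and 144 input reads (ratio 14.6, 12.3 to 17.4). H3K27me3 replicate 2 had a promoter peak of 9460 bp with 985 ChIP and 161 input reads (6.12, 5.17 to 7.27) and a gene body peak of 3995 bp with 277 ChIP and 62 input reads (4.47, 3.38 to 5.98). Relative to the list medians, the region stood at 1.76 in replicate 1 and, with its 2 peaks pooled, at 1.21 in replicate 2. The gene body peak of replicate 2 alone, at 4.47, lay below the list median of 4.68.

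Ring1b at Dlk1 was weak and was called in replicate 1 only. That peak, 944 bp long, held 47 ChIP and 18 input reads, 14 of the ChIP reads on the plus strand and 33 on the minus strand (ratio 2.61, 1.49 to 4.78). The nearest Ring1b peak of replicate 2 was 398 kb away and was named Begain. H2AK119ub named Dlk1 in both replicates, at places that met only in part. Replicate 1 had 2 distal peaks with 24 ChIP and 10 input reads, and with 38 ChIP and 20 input reads. Replicate 2 had a distal peak with 168 ChIP and 112 input reads (1.5, 1.17 to 1.92) and a promoter peak with 161 ChIP and 74 input reads (2.18, 1.64 to 2.91). The first distal peak of replicate 1 and that of replicate 2 overlapped in 10.8% of their merged length, and a promoter peak was present in replicate 2 only.

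Meg3, the maternally expressed noncoding RNA of the domain, spans 109540996 to 109571729. It was named by 1 list, H3K27me3 replicate 1, in 2 rows. The promoter row, from 109539965 to 109542455 (2491 bp), held 235 ChIP and 15 input reads (ratio 15.7, 9.31 to 28.4), and the distal row, from 109507539 to 109509720 (2182 bp), held 151 ChIP and 22 input reads (6.86, 4.37 to 11.3). The high ratio of the promoter row rested on 15 input reads, 6.02 per kb, the lowest input density among the 45 rows. H3K27me3 replicate 2 had its nearest peak 80.8 kb away, at Dlk1. No Ring1b or H2AK119ub peak touched the 77.7 kb between Dlk1 and Meg3. Farther along the domain Dio3, which encodes a deiodinase that inactivates thyroid hormone, was named by all 6 lists. Its Ring1b region averaged 3.31 ± 0.432 times input and its H3K27me3 region 12.9 in replicate 1 and 7.08 in replicate 2.

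Mest encodes a protein of the alpha/beta hydrolase family expressed from the paternal copy in mesodermal tissue, and spans chromosome 6 from 30733506 to 30748466 on the plus strand. Ring1b held 338 ChIP and 118 input reads over 5280 bp in replicate 1, and 260 ChIP and 104 input reads over 4670 bp in replicate 2. The ratios of 2.86 (2.32 to 3.56) and 2.50 (1.98 to 3.17) averaged 2.68 ± 0.258 (SD, n = 2). These peaks began after start 1 and covered starts 2 and 3. H3K27me3 held 382 ChIP and 52 input reads over 4001 bp, and 177 ChIP and 53 input reads over 2235 bp, with ratios of 7.35 (5.49 to 10.0) and 3.34 (2.44 to 4.63), both below the list medians of 8.31 and 4.68. H2AK119ub was called in replicate 2 alone, with 114 ChIP and 56 input reads over 2677 bp (2.04, 1.47 to 2.86). The replicate 1 list of H2AK119ub had its nearest peak 207 kb away, at Klf14. All 5 lists that named Mest covered start 2 whole.

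Nnat, which encodes neuronatin, a small membrane protein of the developing brain expressed from the paternal copy, lies within the gene Blcap on chromosome 2 from 157560078 to 157562525. It was named by both Ring1b lists and by no list of either mark. The Ring1b peaks held 59 ChIP and 25 input reads over 1130 bp in replicate 1 (ratio 2.36, 1.46 to 3.93) and 43 ChIP and 22 input reads over 860 bp in replicate 2 (1.95, 1.14 to 3.43). Their average was 2.16 ± 0.287 (SD, n = 2), below the list medians of 2.40 and 2.29. The nearest H2AK119ub peaks lay 89.5 and 93.0 kb away and the nearest H3K27me3 peaks 351 and 352 kb away. Nnat was the only 1 of the 10 genes named by both Ring1b lists with no row in any mark list.

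Plagl1, a zinc finger regulator of other imprinted genes, spans chromosome 10 from 13090832 to 13131694. Both Ring1b lists named it, but at places that did not overlap. Replicate 1 had a promoter row of 761 bp, shared with the noncoding Hymai, with 37 ChIP and 17 input reads (ratio 2.18, 1.20 to 4.12). Replicate 2 had a distal row from 13060854 to 13062505 with 58 ChIP and 35 input reads (1.66, 1.07 to 2.60), 28.3 kb before the gene. H3K27me3 replicate 1 had a distal row of 3328 bp with 309 ChIP and 48 input reads (6.44, 4.74 to 8.92) that held the whole of the distal Ring1b peak. No H2AK119ub list named Plagl1. When replicate peaks had to overlap, the Ring1b count was therefore 4 genes and not 5.

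Peg3, a zinc finger gene expressed from the paternal copy, lies on chromosome 7 from 6703892 to 6730462, and Ndn, which encodes necdin, a growth-restraining protein of neurons from the region lost in Prader-Willi syndrome, lies on the same chromosome from 62348277 to 62349928. No list named either gene. The nearest peaks to Peg3 lay 1644 to 1650 kb away over the 6 lists. The nearest peaks to Ndn lay 1406 to 1408 kb away for Ring1b and H2AK119ub, and 55.7 kb and 1094 kb away in H3K27me3 replicates 1 and 2. The lists give no reads outside peaks, so a signal under the peak caller's limit could not be seen.

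Across the 10 genes the Ring1b ratio separated Igf2 from the others. Its replicate values, 6.25 and 7.24, lay above every other Ring1b row of the 10 genes, which ran from 1.66 to 2.87. The counting intervals of Igf2 began at 5.32 and those of the other rows ended at 4.78 or lower. Mest and Grb10 lay between 2.40 and 2.87, with overlapping replicate values. Nnat, at 2.36 and 1.95, lay just below them, with counting intervals that overlapped theirs. In H2AK119ub no gene stood apart, with rows from 1.21 to 2.58 in both replicates together. In H3K27me3 Igf2 and Dlk1 were the highest of the 4 genes named by both lists, within each replicate, at 15.6 and 14.6 in replicate 1 and at 4.88 and 6.12 in replicate 2. The order of this pair differed between the replicates, and their counting intervals overlapped in each, so no order was resolved. The gene body row of Dlk1 in replicate 2 had 4.47, below Igf2. Mest had 7.35 and 3.34, and the Grb10 rows had 4.59 to 9.44 and 3.64 to 3.93.

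**Figure D4:**
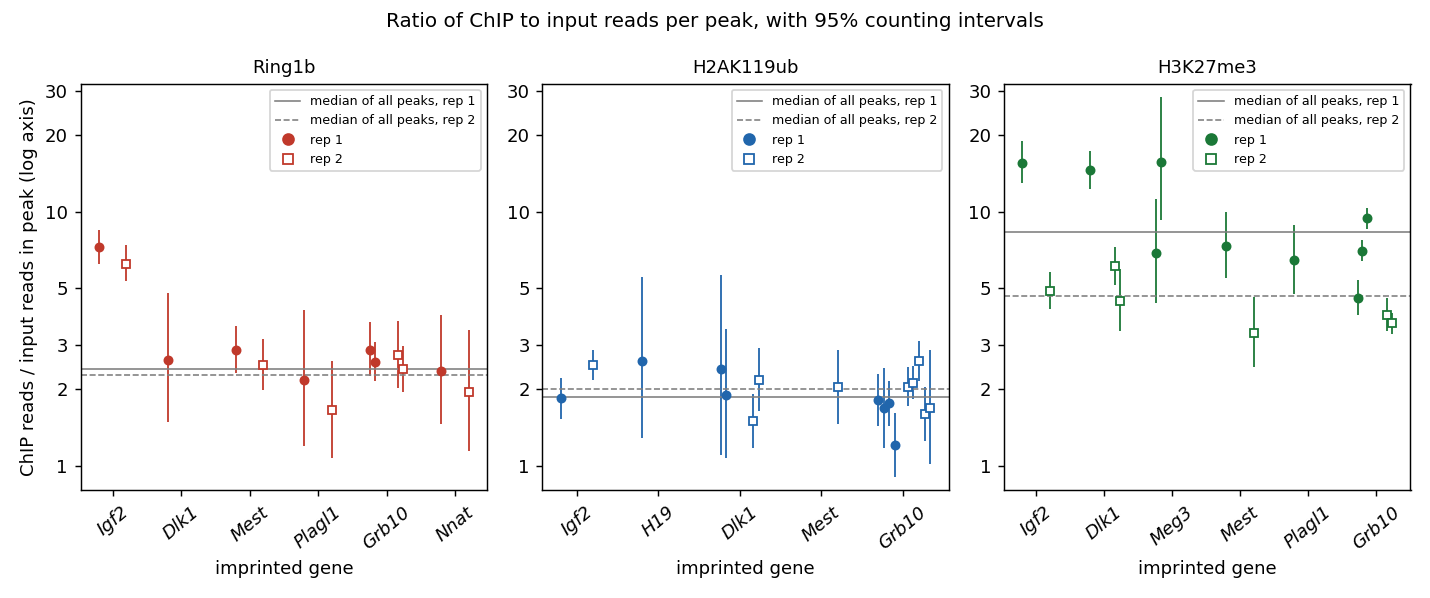
Ratio of ChIP to input reads in each peak naming an imprinted gene (log axis), by antibody, with filled circles for replicate 1, open squares for replicate 2 and bars for 95% counting intervals; grey lines are the median ratio of all peaks in each list. Igf2 stands at 7.24 and 6.25 in Ring1b, above the medians of 2.40 and 2.29, and the H3K27me3 values of replicate 1 lie above those of replicate 2 at the genes named by both.

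Rank in the list by length and by ratio sorted the genes in another way. Igf2 was high on both in Ring1b, at percentiles 94.3 and 92.2 by length and 98.5 and 97.6 by ratio. The upstream Grb10 peak of Ring1b was at 94.8 and 91.8 by length but at 57.4 and 55.3 by ratio, and Mest was at 90.6 and 87.3 by length and 67.6 and 58.7 by ratio. Nnat and the Ring1b rows of Dlk1 and Plagl1 were below percentile 60 on both. In H3K27me3 the promoter row of Meg3 was at 92.5 by ratio and at 12.5 by length, the reverse of Grb10.

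**Figure D5:**
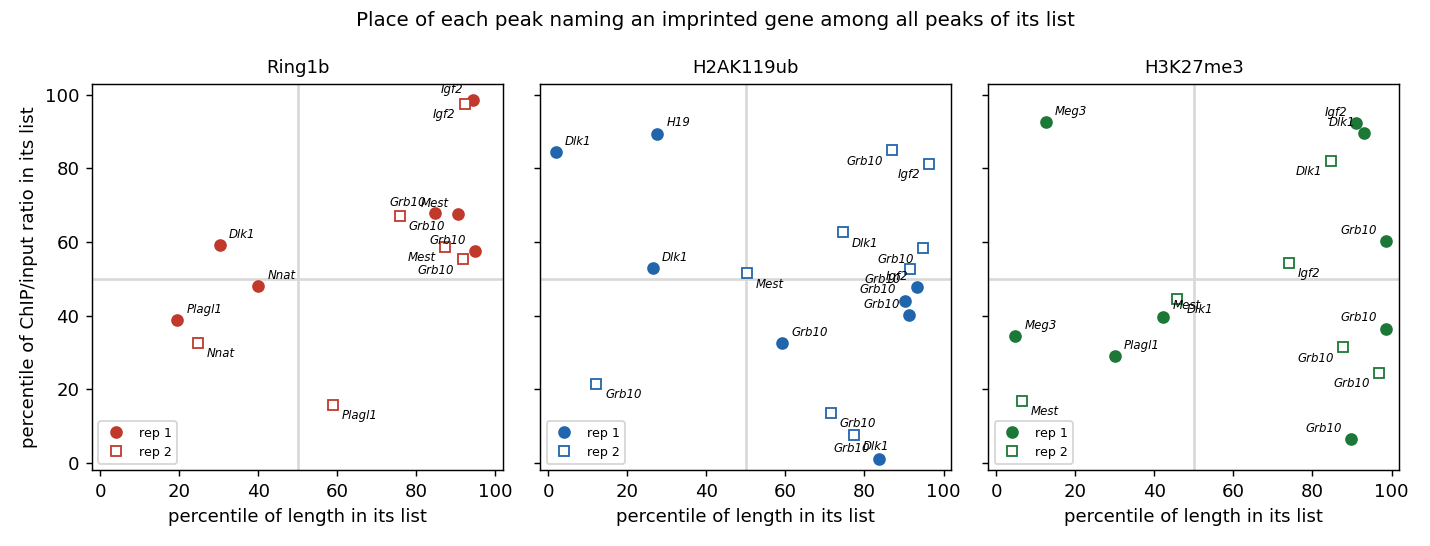
Percentile of each peak among all peaks of its own list by length (horizontal) and by ratio of ChIP to input reads (vertical), for each antibody, with filled circles for replicate 1 and open squares for replicate 2. Igf2 is in the upper right corner for Ring1b at 94.3 and 98.5 in replicate 1, while the H3K27me3 peaks of Grb10 lie at 87.8 to 98.6 by length and at 6.47 to 60.3 by ratio.

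A wider list of 64 genes reported as imprinted in some mouse tissue, also drawn up with earlier results of these data known, was read in the same way. Both Ring1b lists named 17 (26.6%), both H2AK119ub lists 12 (18.8%) and both H3K27me3 lists 17 (26.6%). The same backgrounds were 6.97%, 5.95% and 6.94% of all genes, and 10.2%, 8.68% and 10.0% of protein-coding genes. Peg10 and Sgce were named by the same Ring1b rows, and Nespas by rows that also named Gnas, and each gene was counted. All 6 lists named 8, which were Slc22a18, Ascl2, Klf14, Zdbf2, Sfmbt2, Rasgrf1, Dio3 and Begain. Several adjoin the genes above, with Ascl2 and Slc22a18 on chromosome 7 beyond Igf2, Klf14 beyond Mest, and Begain and Dio3 on either side of Dlk1 and Meg3, so they are not independent of them. Among these 64 genes the Ring1b ratio was highest at Rasgrf1, a nucleotide exchange factor for Ras, where a distal region averaged 11.3 ± 0.796 (SD, n = 2), above the 6.75 ± 0.700 of Igf2. Zdbf2 followed at 6.09 ± 0.823 over 38475 bp, then Klf14 at 5.28 ± 0.0675 and Begain at 5.19 ± 1.21. With only the region of highest mean ratio taken for each gene, the median of the 16 distinct regions was 2.99.

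The remaining genes of the wider list fell into smaller sets. Ring1b in both replicates, without H2AK119ub or H3K27me3 in both, was found for Phlda2, which limits placental growth, for Ube3a, the ubiquitin ligase of Angelman syndrome, for Peg10 and Sgce under a shared peak, and for Phactr2 and H13. Cdkn1c, an inhibitor of the cell cycle, had Ring1b at 2.39 ± 0.0786 and H2AK119ub at 1.68 ± 0.0753 (SD, n = 2 each), with H3K27me3 in replicate 1 only. Asb4 and Htr2a had Ring1b and H3K27me3. Some of the Ring1b rows behind these sets were weak. Ube3a had a Ring1b ratio of 1.51 (interval 0.993 to 2.33) in replicate 1, with a deposited p-value of 0.464. In replicate 2 its ratio was 2.92 (1.48 to 6.17). H13 had 27 ChIP and 13 input reads in Ring1b replicate 1, with a deposited p-value of 0.183, and 48 and 17 reads in replicate 2. Htr2a had 99 ChIP and 66 input reads in Ring1b replicate 1, and 39 and 25 in replicate 2. Its deposited p-values were 0.399 and 0.144. Kcnq1, a potassium channel, and Cobl, the neighbour of Grb10, had both marks and no Ring1b. H3K27me3, but neither Ring1b nor H2AK119ub, was found in both replicates of Slc22a3, Calcr, Kcnk9 and of Gnas with its antisense Nespas, and H2AK119ub without Ring1b or H3K27me3 for Cdh15. Gnas and Nespas had Ring1b and H2AK119ub rows in 1 replicate each, and Kcnk9 had an H2AK119ub row in replicate 2, with 88 ChIP and 25 input reads. H13 had H2AK119ub in replicate 2 and H3K27me3 in replicate 1. The shared Peg10 and Sgce peak had Ring1b ratios of 5.78 and 2.44, over 9 and 18 input reads.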

How the data were processed

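ChIP-seq peak lists of Ring1b, H2AK119ub and H3K27me3 (2 replicates each) were read, and the 8 samples of the other groups, input included, were not analysed here. The submitters' processing notes list MACS2 2.1.0, Bowtie2 2.2.3, Bowtie 1.1.1, SAMtools 0.1.19 and Trim Galore 0.4.1 with build mm10, without saying which tool produced the peaks. Every deposited row gives, per the file headers, the peak's position, a maximum height (a coverage signal, not used), counts of ChIP and input reads per strand, a p-value, a location class and gene names. The authors' counts are whole reads with no normalization described. The test behind the deposited p-value and any scaling of the input were not given in the sources used here. Each sample's group and replicate came from its title, and nothing says that replicates came from separate animals, so their spread may be technical.

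Lengths treat coordinates as closed intervals. Each ratio is ChIP over input reads in the same peak, unscaled for library size, and was compared only within an antibody. Where several peaks named a gene each was reported, and mean ± SD was given where replicate peaks overlapped by at least 1 bp. The deposited union list of each antibody served as an alternative only. The background came from RefSeq (GRCm38.p6). Of 7264 names in the lists 7074 matched a symbol, 177 a synonym and 13 neither. Of the 64 wider-list genes 63 matched. The 10 genes, the wider list, the markers and the alternatives were chosen with earlier results of these data known. Named genes were the 10, those of the wider list named by both replicates of an antibody, and those sharing a row with the 10 (Igf2os, Mir483, Mir335 and Hymai). Name matching and intervals were tested on simulated data. Python 3.11.15, pandas 2.3.3, NumPy 2.4.6, SciPy 1.17.1 and Matplotlib 3.10.9 were used.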

Additional observations from a re-analysis of the deposited data

How the results depend on the processing

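Counts of the 10 genes named by both replicate lists were 5 for Ring1b, 3 for H2AK119ub and 4 for H3K27me3. Rows with a deposited p-value of at most 0.001 gave 3 for Ring1b, and the union list alone gave 5 for H2AK119ub. Promoter rows, and overlap with the gene span extended by 2000 bp, each gave 4, 2 and 4, without Plagl1 for Ring1b and Dlk1 for H2AK119ub. Replicate peaks that overlap, an alternative added after seeing the data, gave 4, 3 and 4. Leaving out 1 replicate at a time gave 5 to 6 for Ring1b, 4 for H2AK119ub and 4 to 6 for H3K27me3. For the wider list the same step gave 18 to 25 for Ring1b, 13 to 20 for H2AK119ub, with 20 in replicate 2 alone against 12 in both, and 17 to 21 for H3K27me3. Reads summed over replicates give a ratio between the 2 replicate values by construction, so that setting could not move past the replicate SD. With all rows taken, ratios at a gene moved by less than the replicate SD in all 12 cases. Where each list had 1 row for the gene, that value could not change. Division by the list median changes the scale, and moved all 12. No paired analysis was possible because no result comes from a test between groups. Depth limits the rows with few reads, such as H19 with 12 input reads.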

Other observations

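The gene name column did not mark overlap alone. Mir335, a microRNA gene within Mest, was named in Mest rows of all 3 antibodies, although no peak of the 6 lists reached its hairpin (chromosome 6, 30741299 to 30741396, mm10). Mir483, a microRNA gene within Igf2, had its hairpin inside a peak in H2AK119ub replicate 2 and H3K27me3 replicate 1 and in no other list. A further H2AK119ub row of replicate 1 lay over the Igf2 span from 142653920 to 142654597 and named Mir483 without Igf2. It held 37 ChIP and 9 input reads, a ratio of 4.11, and was not counted for Igf2.

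At Rasgrf1, outside the 10 genes, the region with the highest Ring1b ratio of the wider list lay on chromosome 9 from 89881439 to 89885204 (mm10) in a distal row. It held 1196 ChIP and 101 input reads in replicate 1, and 1018 ChIP and 95 input reads in replicate 2. The promoter region of the same gene averaged 4.18 ± 0.908 in Ring1b (SD, n = 2). H2AK119ub peaks overlapping the distal region had 46 ChIP and 18 input reads in replicate 1 and 167 ChIP and 105 input reads in replicate 2, with ratios of 2.56 and 1.59. The H2AK119ub peak of replicate 1 met only the edge of the region. It began at 89884930, past the end of the replicate 2 Ring1b peak at 89884897. The 2 H2AK119ub peaks overlapped in 11.1% of their merged length. This gene was picked after its values were seen.

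A H3K27me3 peak of replicate 1 without a gene name lay 55.7 kb beyond Ndn, from 62405585 to 62408890 on chromosome 7, and replicate 2 had none there.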
